A study of Homo sapiens with 6 samples.

Results

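Superoxide dismutases, catalase, glutathione peroxidases and peroxiredoxins were examined in sorafenib-resistant liver cancer cells treated with fostamatinib. The 10 genes, chosen by name, were SOD1, SOD2, CAT, GPX1, GPX2, GPX3, GPX4, PRDX1, PRDX3 and PRDX5, and all 10 were listed among the 16305 genes measured. Huh7SR cells, called Huh7-R in the study's methods, are a pool of cells derived from the human hepatocellular carcinoma line Huh7 by long exposure to sorafenib, a multi-kinase inhibitor. They received either fostamatinib, a prodrug whose active form inhibits the kinase SYK, or the solvent DMSO for 24 h, with 3 samples per group. The labels give 2 µM as the dose in both groups. The study found no SYK protein in Huh7 cells. At a higher dose and a shorter time, it reports less phosphorylation of ERK, AKT, STAT3, EGFR and JNK after fostamatinib. All 6 samples came from the resistant pool, which had been taken off sorafenib for some days before the experiments, and the parental line was not part of this comparison. The comparison asks how the RNA of resistant cells responds to a drug that the study had picked as a candidate against sorafenib resistance. The labels call the samples triplicates without naming separate cultures, so the p-values measure the spread between these samples, which may be technical.

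These enzymes form a relay that disposes of reactive oxygen. Superoxide, which leaks mainly from mitochondrial respiration, is turned into hydrogen peroxide by superoxide dismutases, SOD1 with copper and zinc in the cytosol and SOD2 with manganese in the mitochondrial matrix. Hydrogen peroxide is then removed by catalase in peroxisomes, by glutathione peroxidases at the expense of glutathione, and by peroxiredoxins at the expense of thioredoxin. Hepatocytes are rich in this machinery, since oxidation of fatty acids and drugs in the liver produces peroxide.

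Promoter sequence is shown for SOD2, the gene that fell, and for CAT, GPX2, GPX3 and GPX4, the 4 genes with the largest rise. The sequences are from RefSeq on GRCh38.p14, 250 bases before to 50 after the start of transcription, written 5′ to 3′ on the strand of the gene. The SOD2 sequence lies at chr6:159693192-159693491 on the minus strand, that of CAT at chr11:34438684-34438983 on the plus strand, that of GPX3 at chr5:151020341-151020640 on the plus strand, that of GPX4 at chr19:1103744-1104043 on the plus strand and that of GPX2 at chr14:64942696-64942995 on the minus strand. Capitals mark CCAAT boxes (CCAAT on either strand) in the sequences of CAT, GPX2, GPX3 and GPX4, GC boxes (GGGCGG on either strand) in that of SOD2 alone, and the core of an antioxidant response element (TGACNNNGC on either strand) in GPX2.
SOD2: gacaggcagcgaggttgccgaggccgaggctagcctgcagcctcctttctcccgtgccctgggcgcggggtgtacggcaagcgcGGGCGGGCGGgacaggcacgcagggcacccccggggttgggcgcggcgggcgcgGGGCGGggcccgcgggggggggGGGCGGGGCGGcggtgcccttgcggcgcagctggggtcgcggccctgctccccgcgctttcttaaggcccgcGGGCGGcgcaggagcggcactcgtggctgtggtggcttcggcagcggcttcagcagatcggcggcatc
CAT: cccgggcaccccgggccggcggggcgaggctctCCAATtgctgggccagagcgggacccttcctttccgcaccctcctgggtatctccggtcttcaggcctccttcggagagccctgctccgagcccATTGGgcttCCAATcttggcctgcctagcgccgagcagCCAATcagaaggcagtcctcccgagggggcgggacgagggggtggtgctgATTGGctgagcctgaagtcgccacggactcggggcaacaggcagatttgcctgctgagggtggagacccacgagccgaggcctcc
GPX2: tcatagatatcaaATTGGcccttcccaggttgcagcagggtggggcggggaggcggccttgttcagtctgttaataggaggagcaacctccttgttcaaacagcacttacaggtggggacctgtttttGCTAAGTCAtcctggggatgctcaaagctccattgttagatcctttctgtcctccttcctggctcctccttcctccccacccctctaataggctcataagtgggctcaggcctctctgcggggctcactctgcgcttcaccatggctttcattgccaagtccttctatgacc
GPX3: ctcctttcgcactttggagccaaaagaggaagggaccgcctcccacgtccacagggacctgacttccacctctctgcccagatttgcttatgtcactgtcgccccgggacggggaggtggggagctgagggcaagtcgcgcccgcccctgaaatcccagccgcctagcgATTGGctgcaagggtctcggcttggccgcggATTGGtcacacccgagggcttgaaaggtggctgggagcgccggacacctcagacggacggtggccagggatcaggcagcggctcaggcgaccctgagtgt
GPX4: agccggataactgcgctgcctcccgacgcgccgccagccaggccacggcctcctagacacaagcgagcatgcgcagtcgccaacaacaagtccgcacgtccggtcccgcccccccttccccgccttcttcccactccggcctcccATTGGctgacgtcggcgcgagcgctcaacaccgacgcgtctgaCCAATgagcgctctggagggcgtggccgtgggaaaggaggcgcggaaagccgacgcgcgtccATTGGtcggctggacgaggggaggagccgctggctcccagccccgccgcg

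At its canonical start SOD2 held 6 GC boxes, some of them overlapping each other, and no CCAAT box. Other SOD2 starts differed: the window from chr6:159726901 held 1 CCAAT box, that from chr6:159762232 held 3 and that from chr6:159727335 held none. GPX4 and PRDX5 also had further starts, and the counts below are for canonical starts. CAT held 5 CCAAT boxes, GPX4 3, GPX3 2 and GPX2 1. These 4 genes also held 1 GC box each, which is not marked in the sequences. The table had a promoter at the canonical start for 8 of the 10 genes, all but SOD1 and PRDX1. A GC box was present in 8 of these 8, against 45.0% of the 35116 promoters of the table, and a CCAAT box in 4 of 8, against 34.6%. The antioxidant response element core, the sequence bound by NRF2, occurred in 1 of 8, in GPX2, against 13.3% of all promoters. An ETS core (CCGGAAG) was found in GPX1 and PRDX5 and an E-box (CACGTG) in GPX1 and PRDX3, against 10.3% and 7.26% of all promoters. No AP-1 site (TGANTCA), FOXO site (GTAAACA) or NF-kB site was found in the 8 windows, where 7.71%, 3.42% and 11.3% of all promoters held one. Both strands were searched for every motif. A match describes letters only, and an enhancer or intronic element lies outside these windows.

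The comparison over all genes sets the background. Each sample held between 13303451 and 15272737 reads on the genes listed, the deposited values being on a log2 CPM scale (reads scaled to a common library size), and 47.8% of the 16305 genes were called changed by limma at an adjusted p-value under 0.05 (23.3% higher and 24.5% lower after fostamatinib). The 3 values of one group lay wholly above those of the other for 54.1% of genes. The median log2 fold change of all genes was 0.0015. All 8 hepatocyte lineage markers checked (ALB, APOA1, APOB, AFP, HNF4A, TTR, FGB and SERPINA1) were expressed, with a summed level of 4417 to 4748 CPM in DMSO and 5896 to 6220 CPM after fostamatinib, and all 8 rose. The blood cell markers PTPRC and CD68 were not listed, and the fibroblast markers COL1A1 and PDGFRB summed to 7.69 to 8.61 CPM in DMSO and 10.61 to 11.01 CPM after fostamatinib. Of the endothelial markers CDH5 was not listed and PECAM1 stood at 6.10 to 6.93 and 8.72 to 9.89 CPM. The biliary markers KRT19 and KRT7 summed to 222 to 236 and 268 to 277 CPM. KRT19 rose by 0.25 on the log2 scale. KRT7, with a mean of 29 reads in DMSO and 19.7 after fostamatinib, had a log2 fold change of -0.48 and was not called changed. The part of these shifts in the results for the enzymes was not tested. In bulk RNA, fewer cells of a type and less RNA per cell cannot be told apart.

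Of the 10 enzyme genes, 8 were higher after fostamatinib, 1 was lower and 1 was not called changed. The gene that fell was SOD2, and its fall of 1.70 on the log2 scale was larger than the estimated rise of any other. Among the genes that rose, CAT, GPX3 and GPX4 led with log2 fold changes of 0.70, 0.50 and 0.47, together with GPX2, which had few reads. PRDX1, GPX1, PRDX5 and SOD1 rose by 0.24 or less on the log2 scale, and PRDX3 did not pass the test. The 9 called genes compare with 47.8% of all genes called, and the groups did not overlap for 9 of the 10, against 54.1% of all genes. In a fit without a mean-variance trend 6 of the 10 were called, and 6382 of the 16305 genes. Apart from GPX2 the 10 genes had more reads than most genes, and the shares were not matched for read count. The median log2 fold change of the 10 genes was 0.20.

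**Figure D1:**
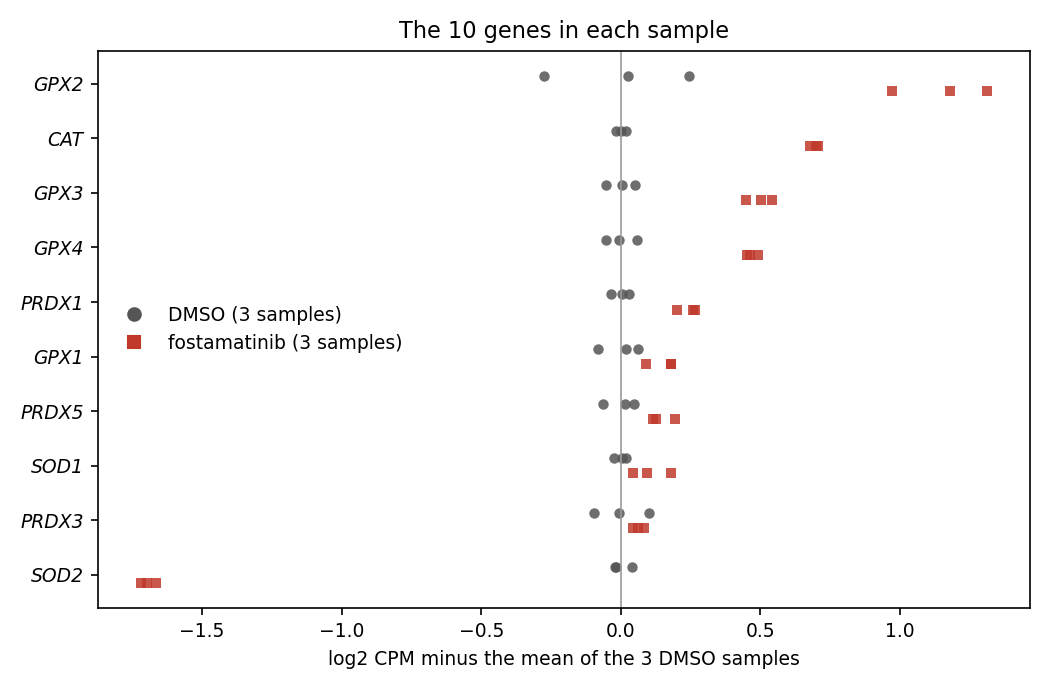
Level of each of the 10 genes in each sample, as log2 CPM minus the mean of the 3 DMSO samples (x axis), with DMSO samples as circles and fostamatinib samples as squares. SOD2 stands alone on the left at -1.70, while in 8 of the other genes the squares lie to the right of all circles and in PRDX3 they mix.

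SOD2 (ENSG00000112096), the superoxide dismutase of the mitochondrial matrix, lies at chr6:160090101-160183561 on the minus strand of GRCh37. In log2 CPM, DMSO gave 10.93, 10.93 and 10.99 and fostamatinib gave 9.28, 9.23 and 9.25. The groups were far apart, with a gap many times the spread within either of them. On the linear scale SOD2 went from 1975 ± 46.8 CPM (SD, n = 3) to 610 ± 11.4 CPM (n = 3), which is 3.24-fold lower. The log2 fold change was -1.70 (SE 0.032, 95% confidence interval -1.76 to -1.63, limma adjusted p = 1.68e-30). By read count SOD2 ranked 23 to 25 among all genes in the DMSO samples and 167 to 176 after fostamatinib. Few abundant genes fell that far: of the 3405 genes that averaged 1000 reads or more, 13 fell as far as SOD2 or further, SOD2 included, or 0.382%.

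SOD2 overlaps other genes, and whether strand was used in counting is not given in the sources used here, so reads of opposite genes cannot be told apart. Its exons share 437 bases with WTAP and 133 with ACAT2, both on the opposite strand, and none of these bases belong to the canonical SOD2 transcript of 14167 bases. WTAP, a component of the RNA m6A methyltransferase complex, had a mean of 2512 reads in DMSO and 1580 after fostamatinib, and it fell by 0.58 on the log2 scale (limma adjusted p = 2.09e-13). ACAT2, an acetyl-CoA acetyltransferase of the cytosol, fell by 0.20 (limma adjusted p = 5.48e-04). SOD2 itself had a mean of 28913 reads in DMSO and 8386 after fostamatinib. How many reads of the shared bases were counted under each gene was not tested. SOD2 transcripts also share 939 bases with SOD2-OT1 on the same strand, a gene not listed in the data.

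SOD1 (ENSG00000142168, chr21:33031979-33041244, plus strand), the cytosolic dismutase, did not follow SOD2. Its log2 CPM was 7.79, 7.83 and 7.82 in DMSO and 7.99, 7.91 and 7.86 after fostamatinib. The lowest fostamatinib sample lay just above the highest DMSO sample. SOD1 rose by 0.11 on the log2 scale (SE 0.041, 95% confidence interval 0.023 to 0.19, limma adjusted p = 0.0305), a fold of 1.08. That call was lost when single samples were left out, with an adjusted p of 0.114 without DMSO replicate 1, 0.221 without fostamatinib replicate 1 and 0.0683 without fostamatinib replicate 2. The intervals of SOD1 and SOD2 did not overlap. There were 8.79 ± 0.228 SOD2 reads per SOD1 read in DMSO (SD, n = 3) and 2.52 ± 0.0952 after fostamatinib (n = 3), an exact permutation p of 0.10, two-sided, the smallest that 3 against 3 samples can give. These are read ratios not corrected for transcript length, and which transcripts were used in each group was not measured.

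CAT (ENSG00000121691, chr11:34460481-34493607, plus strand), the catalase that splits hydrogen peroxide in peroxisomes, showed the largest rise of the 10 genes apart from GPX2. Its log2 CPM was 6.19, 6.17 and 6.15 in DMSO and 6.85, 6.87 and 6.88 after fostamatinib. Both groups were tight, with SDs of 0.018 and 0.014, and lay far apart. The mean went from 71.9 ± 0.898 to 116 ± 1.13 CPM (SD, n = 3 each), a fold of 1.62 (log2 fold change 0.70, SE 0.047, limma adjusted p = 9.03e-15). There were 27.5 ± 0.967 SOD2 reads per CAT read in DMSO and 5.24 ± 0.142 after fostamatinib (SD, n = 3 each, exact permutation p = 0.10, two-sided).

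GPX1, GPX2, GPX3 and GPX4 are glutathione peroxidases with selenocysteine and all 4 rose, against 23.3% of all genes called higher. GPX4 (ENSG00000167468, chr19:1103981-1106790, plus strand), which reduces lipid hydroperoxides inside membranes and is the enzyme that holds back ferroptosis, had a log2 CPM of 8.22, 8.29 and 8.17 in DMSO and 8.69, 8.72 and 8.68 after fostamatinib. The log2 fold change was 0.47 (SE 0.037, limma adjusted p = 7.44e-13), a fold of 1.38. GPX3 (ENSG00000211445, chr5:150400152-150408549, plus strand), the secreted peroxidase of plasma, stood at 5.86, 5.81 and 5.75 in DMSO and at 6.31, 6.25 and 6.35 after fostamatinib. The lowest fostamatinib sample was well above the highest DMSO sample, and the log2 fold change was 0.50 (SE 0.053, limma adjusted p = 8.18e-10), a fold of 1.41.

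GPX1 (ENSG00000233276, chr3:49394607-49396038, minus strand), the general peroxidase of cytosol and mitochondria, moved less. Its log2 CPM was 7.14, 7.19 and 7.05 in DMSO and 7.31, 7.22 and 7.31 after fostamatinib. The nearest samples of the groups were close to each other but did not cross, and the log2 fold change was 0.15 (SE 0.045, limma adjusted p = 0.00608). The call was lost in a limma fit without a mean-variance trend (adjusted p = 0.0981). GPX4 reads per GPX1 read went from 2.15 ± 0.0367 to 2.68 ± 0.138 (SD, n = 3 each, exact permutation p = 0.10, two-sided). GPX1 shares 572 bases of exon with another gene on the same strand that was not listed in the data. A copy, the pseudogene GPX1P1, had 85, 89 and 78 reads in DMSO and 72, 94 and 74 after fostamatinib, against means of 2045 and 2131 for GPX1, and it did not pass the test (log2 fold change 0.01, limma adjusted p = 0.960).

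GPX2 (ENSG00000176153, chr14:65405870-65409464, minus strand), the peroxidase of the gut lining, had few reads, with 5, 7 and 8 under DMSO and 16, 13 and 14 under fostamatinib. The groups did not overlap, yet each read is a sizeable part of the value. The log2 fold change was 1.16 with a wide interval, 0.37 to 1.95 (SE 0.39, limma adjusted p = 0.0136), and the call was lost without fostamatinib replicate 1, where the log2 fold change was 1.08 (limma adjusted p = 0.0558).

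Peroxiredoxins moved little. PRDX1 (ENSG00000117450, chr1:45976586-46008404, minus strand), the main cytosolic peroxiredoxin, had a log2 CPM of 9.99, 10.06 and 10.03 in DMSO and 10.29, 10.29 and 10.23 after fostamatinib. The groups were clearly apart, and the log2 fold change was 0.24 (SE 0.033, limma adjusted p = 1.06e-07), a fold of 1.18. Its exons share 501 bases with MMACHC on the opposite strand, and 364 of these belong to the canonical PRDX1 transcript of 945 bases. MMACHC, a gene of vitamin B12 processing, had a mean of 171 reads in DMSO and 122 after fostamatinib, against 15265 and 16967 for PRDX1. How many reads of the shared bases were counted under each gene was not tested. The pseudogene PRDX1P1 had 10, 12 and 11 reads in DMSO and 7, 10 and 12 after fostamatinib.

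PRDX5 (ENSG00000126432, chr11:64085593-64089283, plus strand), found in mitochondria, peroxisomes and cytosol, had a log2 CPM of 7.85, 7.82 and 7.74 in DMSO and 7.99, 7.92 and 7.93 after fostamatinib. Its groups lay next to each other without crossing, and the log2 fold change was 0.14 (SE 0.040, limma adjusted p = 0.00330), a call lost in a limma fit without a mean-variance trend (adjusted p = 0.0793). PRDX3 (ENSG00000165672, chr10:120927232-120938324, minus strand), the peroxiredoxin of the mitochondrial matrix where SOD2 also resides, had a log2 CPM of 7.82, 7.72 and 7.92 in DMSO and 7.88, 7.90 and 7.87 after fostamatinib. The fostamatinib samples fell inside the range of the DMSO samples. The log2 fold change was 0.06 (SE 0.043, 95% confidence interval -0.025 to 0.15, limma adjusted p = 0.240), and without DMSO replicate 3, the highest of its group, it was 0.11 (limma adjusted p = 0.0159).

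The make-up of the 10-gene pool changed with treatment. The 10 genes took 0.428% ± 0.00317 of all reads in DMSO and 0.332% ± 0.00485 after fostamatinib (SD, n = 3 each), while the 9 genes other than SOD2 went from 0.229% ± 0.00178 to 0.271% ± 0.00440. SOD2 made up 46.4% ± 0.740 of the reads on the 10 genes in DMSO and 18.3% ± 0.279 after fostamatinib. In the DMSO samples there were 1.90 ± 0.0584 SOD2 reads for each PRDX1 read, and after fostamatinib 0.495 ± 0.0138. The groups did not overlap in any of these 4 measures, and the exact permutation p was 0.10 for each, two-sided.

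**Figure D2:**
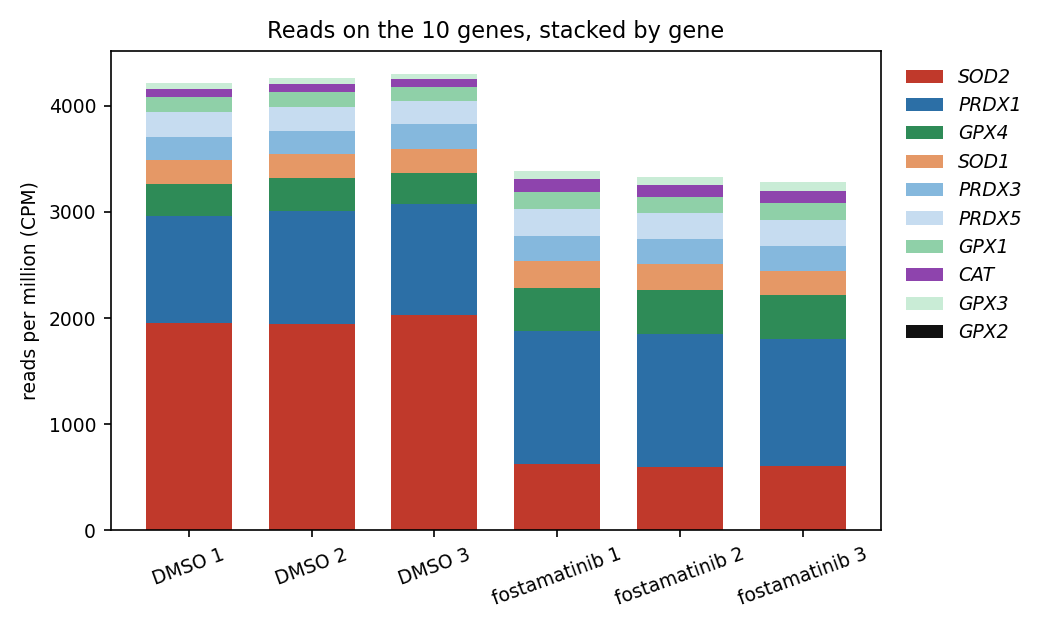
Level in CPM of each of the 10 genes, stacked, in the 3 DMSO and the 3 fostamatinib samples (bars, one per sample, y axis from 0). The SOD2 segment shrinks from 1975 to 610 CPM on average, the PRDX1 segment grows from 1042 to 1233 CPM, and the total is lower in all 3 fostamatinib samples.

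Per length of transcript the order of levels was different from the order of reads, because the canonical SOD2 transcript is 14167 bases long and those of SOD1 and PRDX1 are 895 and 945 bases. In DMSO, CPM per kilobase of canonical transcript was highest for PRDX1 at 1103 ± 25.6 and next for GPX4 at 352 ± 13.9 (SD, n = 3 each). PRDX5 at 259 ± 10.04 and SOD1 at 251 ± 4.01 followed, and these neighbours did not differ beyond their spread. Next came GPX1 at 155 ± 7.77, PRDX3 at 146 ± 10.2 and SOD2 at 139 ± 3.30, where PRDX3 overlapped both of its neighbours while GPX1 and SOD2 did not overlap each other. Below them came GPX3 at 34.9 ± 1.27, CAT at 31.4 ± 0.392 and GPX2 at 0.492 ± 0.0953. After fostamatinib SOD2 stood at 43.0 ± 0.805 CPM per kilobase, beside CAT at 50.8 ± 0.495 and GPX3 at 49.3 ± 1.64. The order depends on the length used, and which SOD2 transcripts were present was not measured. With a transcript shorter than the canonical one, SOD2 would stand higher per kilobase. Over all annotated exons, SOD2 after fostamatinib, at 33.6 ± 0.629 CPM per kilobase, was above and not below CAT at 32.5 ± 0.317 and GPX3 at 26.3 ± 0.876, and in DMSO PRDX5 at 259 came before GPX4 at 163.

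In the rest of these families 1 gene fell. Of 9 genes listed 7 were measured, and 3 of these rose, 1 fell and 3 did not pass the test, so that 57.1% were called, near the 47.8% of all genes. The median log2 fold change was 0.22. CCS, the chaperone that loads copper into SOD1, rose by 0.47 on the log2 scale (limma adjusted p = 7.62e-10), more than SOD1 itself. PRDX2 of the cytosol rose by 0.23 and PRDX6, which also reduces phospholipid hydroperoxides, by 0.13. GPX8, a peroxidase of the endoplasmic reticulum without selenium, fell by 0.23. The log2 fold changes of SOD3, the extracellular dismutase, of GPX7 and of PRDX4, both of the endoplasmic reticulum, were 0.26, 0.22 and 0.01 and did not pass.

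Genes of thioredoxin and glutathione reduction, not all of which feed electrons to peroxiredoxins or glutathione peroxidases, were called about as often as other genes. All 13 genes of thioredoxin and glutathione reduction were measured: 1 rose, 6 fell and 6 did not pass, which makes 53.8% called against 47.8% of all genes. Over all genes 23.3% were called higher and 24.5% lower, and the median log2 fold change of the 13 was -0.12. Glutaredoxins fell most: GLRX by 0.91, GLRX2 by 0.79 and GLRX3 by 0.46 on the log2 scale. GLRX and GLRX2 use glutathione to reduce protein disulfides. GLRX5, of iron-sulfur cluster assembly, had a log2 fold change of -0.12 that did not pass. Thioredoxin itself, TXN, fell by 0.26, its inhibitor TXNIP by 0.24 and glutathione reductase, GSR, by 0.12. The mitochondrial thioredoxin TXN2, which serves PRDX3, rose by 0.20. TXNRD1, TXNRD2, TXNRD3 and NXN had log2 fold changes of -0.02, 0.06, -0.15 and -0.03 and did not pass. SRXN1, the sulfiredoxin that repairs overoxidised peroxiredoxins, had a log2 fold change of 0.33 and did not pass either. It had few reads, with 17, 14 and 13 in DMSO and 18, 18 and 16 after fostamatinib. Of its 2528 canonical bases 2292 are shared with a gene on the same strand that was not listed in the data.

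**Figure D3:**
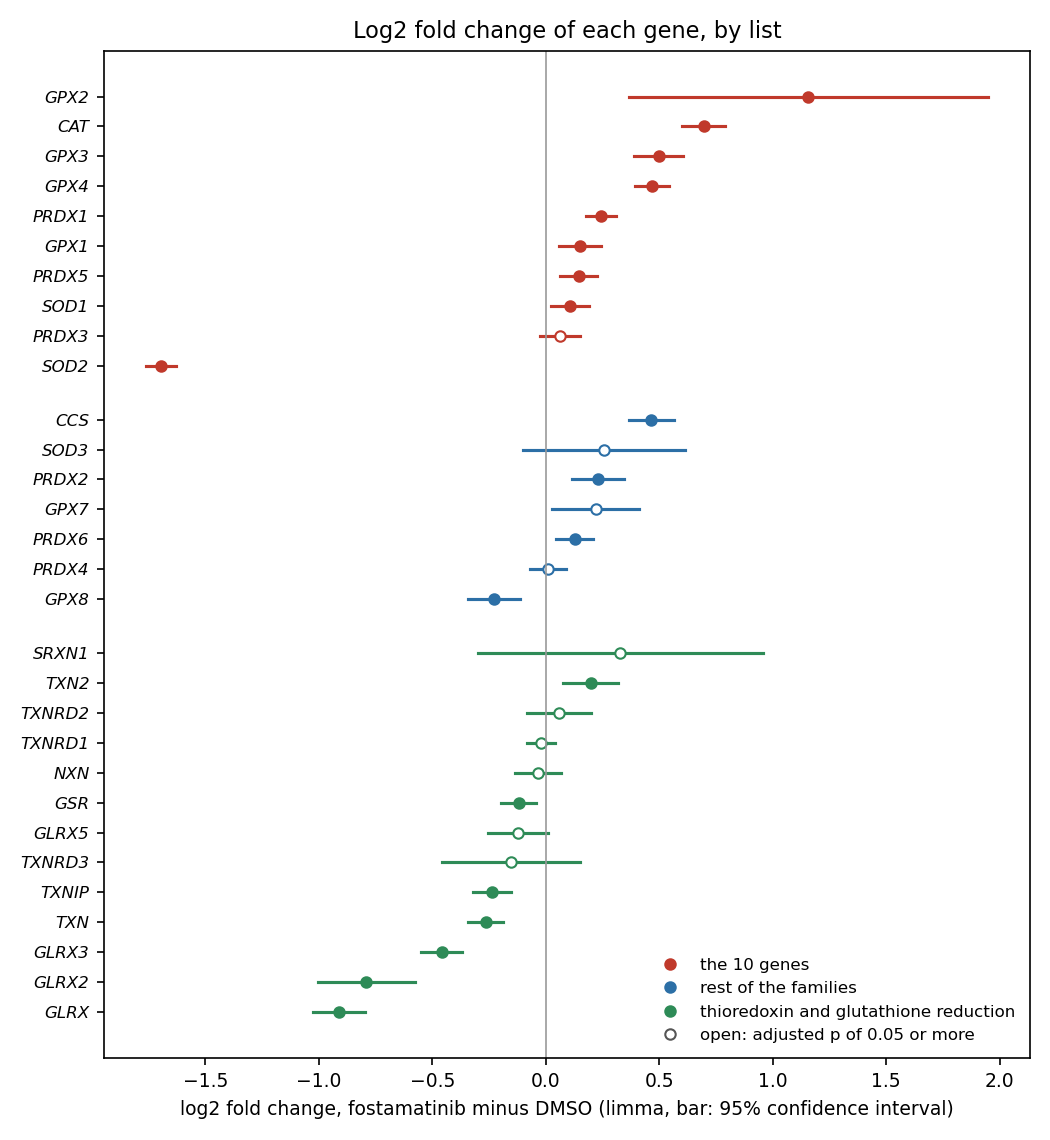
Log2 fold change of fostamatinib against DMSO (x axis) for the 10 genes, the rest of their families and the genes of thioredoxin and glutathione reduction, with limma 95% confidence intervals as bars, filled points for an adjusted p-value under 0.05 and open points otherwise. Most points of the 10 genes lie right of 0 with SOD2 far to the left, and the glutaredoxins GLRX, GLRX2 and GLRX3 lie at the left end of the lowest group.

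Genes that produce superoxide or hydrogen peroxide were split. Of 25 listed 18 were measured, of which 9 rose and 4 fell, against 23.3% and 24.5% of all genes, with a median log2 fold change of 0.19. The 9 include NOX4 and DUOX1, which passed the authors' read filter only through the fostamatinib samples. Their direction was therefore set by the filter. HAO1 passed it only through the DMSO samples and was not called. MAOB, a monoamine oxidase of the outer mitochondrial membrane, rose 3.42-fold, with a log2 fold change of 1.78, and the polyamine oxidase PAOX rose by 0.87. The spermine oxidase SMOX fell by 0.81 on the log2 scale and ERO1A, which passes electrons to oxygen during disulfide formation in the endoplasmic reticulum, by 0.76.

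The selenium genes bear on GPX1, GPX2, GPX3 and GPX4, whose translation needs selenocysteine. Of the 8 genes of selenoprotein synthesis 3 rose, 2 fell and 3 did not pass, so that 62.5% were called against 47.8% of all genes, with a median log2 fold change of 0.10. SEPHS2, which makes the selenium donor, rose by 0.37, SECISBP2L by 0.34 and SEPSECS, which completes selenocysteine on its tRNA, by 0.23, while SEPHS1 fell by 0.22. Without DMSO replicate 2 and likewise without fostamatinib replicate 2, 3 of the 8 were called in place of 5. Among the other selenoproteins 14 of 15 were measured: 10 rose, 2 fell and 2 did not pass, or 85.7% called against the same 47.8%, with a median log2 fold change of 0.18. The 10 include DIO1, which passed the authors' read filter only through the fostamatinib samples, so its direction was set by the filter. SELENOP, the hepatic carrier of selenium in plasma, rose by 1.60 and the deiodinase DIO2 by 1.61. SELENOO rose by 0.34, and SELENOI, an enzyme of phospholipid synthesis, fell by 0.55. Of the 2056 canonical bases of SELENOP, 1452 are shared with CCDC152 on the opposite strand, a gene not listed in the data.

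Peroxisome biogenesis genes, which build the organelle of CAT, showed no common direction. Of 16 listed 15 were measured, 4 rose, 3 fell and 8 did not pass, a share near the 47.8% of all genes, and the median log2 fold change was 0.04. PEX6 and PEX19 rose by 0.62 and 0.39 on the log2 scale. PEX7, the receptor for one class of peroxisomal targeting signal, fell by 0.74. CAT rose by 0.70 beside these values.

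Regulators known to act on these enzymes moved in both directions. Of the 12 genes 5 rose, 5 fell and 2 did not pass, so that 83.3% were called against 47.8% of all genes, with a median log2 fold change of -0.02. NFE2L2, which encodes NRF2, had a log2 fold change of 0.05 (limma adjusted p = 0.227) and did not pass. KEAP1, which marks NRF2 for degradation, rose by 0.15, and BACH1, a repressor at antioxidant response elements, fell by 0.48. FOXO1 and FOXO4 rose by 0.88 and 0.82, while FOXO3, a known activator of SOD2 and CAT, fell by 0.44. The coactivator PPARGC1A rose by 0.92 and PPARGC1B fell by 1.07 on the log2 scale. PPARA, the receptor behind peroxisomal fatty acid oxidation, rose by 0.89, and ESRRA fell by 0.23. The NF-kB subunit NFKB1 fell by 0.43, and RELA, with a log2 fold change of -0.10, did not pass. RNA levels of a regulator do not give its activity.

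**Figure D4:**
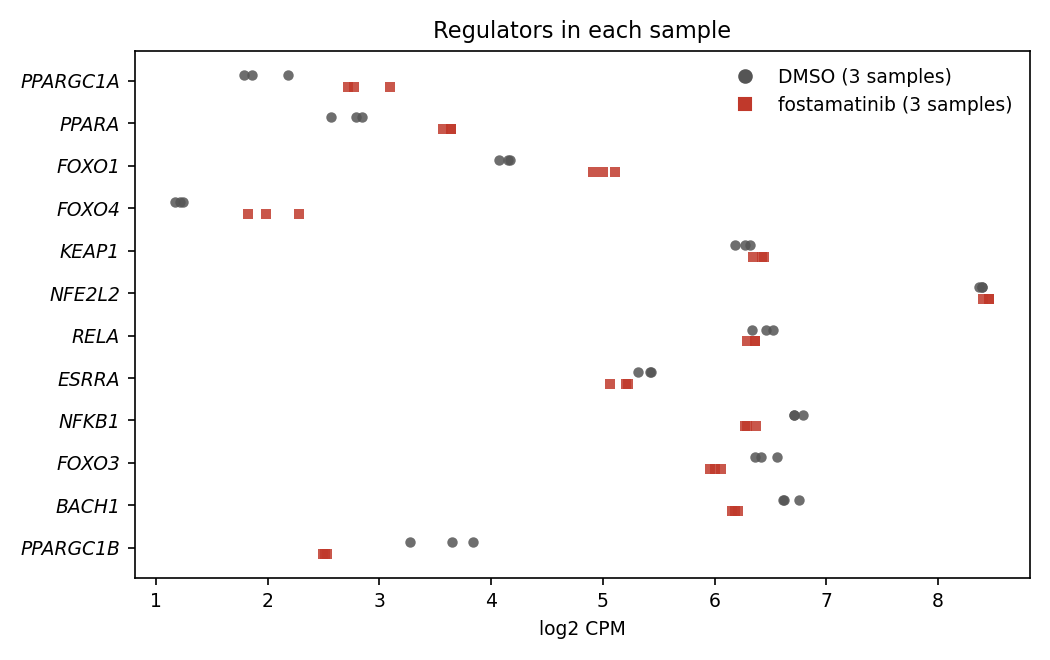
Log2 CPM (x axis) of the 12 regulators in the 3 DMSO samples (circles) and the 3 fostamatinib samples (squares), sorted by log2 fold change. PPARGC1A, PPARA, FOXO1 and FOXO4 lie higher after fostamatinib, PPARGC1B, BACH1, FOXO3 and NFKB1 lie lower, and NFE2L2 and RELA were not called changed.

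Genes tied to lipid peroxidation and ferroptosis, the setting in which GPX4 acts, mostly fell. Of 15 listed 11 were measured, 2 rose, 8 fell and 1 did not pass, against 24.5% of all genes called lower, and the median log2 fold change was -0.46. SLC7A11, the cystine importer that supplies glutathione synthesis, fell by 1.76 on the log2 scale, and CHAC1, which degrades glutathione, had a log2 fold change of -4.28. PTGS2 fell by 1.39 and DHODH, a mitochondrial enzyme that protects membranes beside GPX4, by 1.24. GPX4 rose by 0.47 beside these values.

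**Figure D5:**
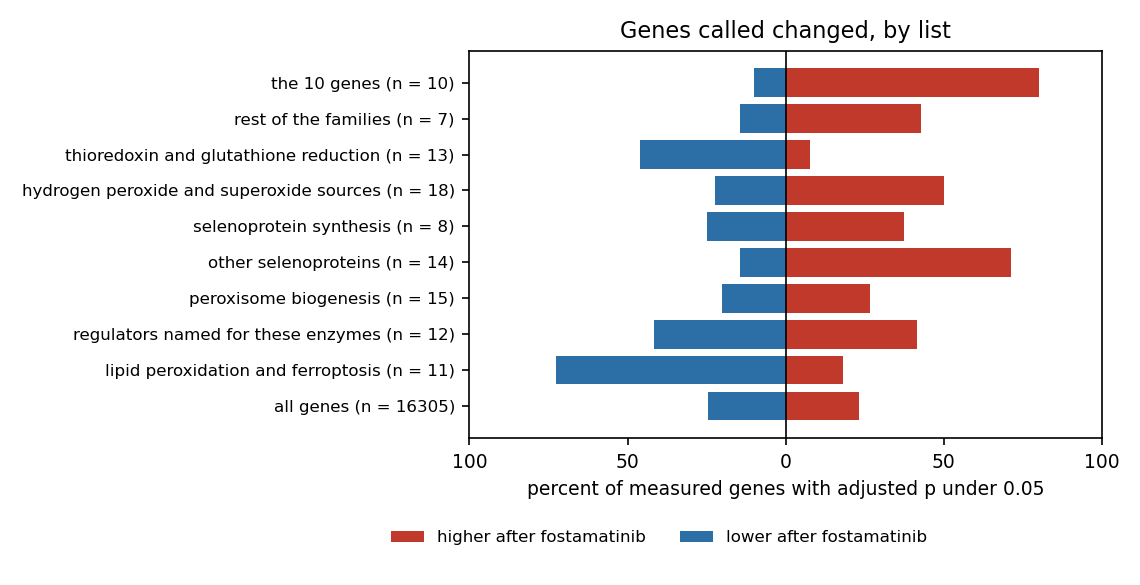
Percent of the measured genes of each list called higher (right bars) or lower (left bars) after fostamatinib by limma at an adjusted p-value under 0.05, with the number measured beside each name and all genes as the last bar. The 10 genes and the other selenoproteins extend furthest to the right, and lipid peroxidation and ferroptosis furthest to the left. The right bars include NOX4, DUOX1 and DIO1, which passed the authors' read filter only through the fostamatinib samples.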

How the data were processed

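RNA-seq libraries of Huh7SR cells were made by the study with a directional poly(A) kit. The submitters' processing notes and the study's methods name HISAT, featureCounts and hg19, with a GENCODE annotation. Tool versions and the strand setting of the counting are not given in the sources used here. The authors dropped a gene when 2 of 3 samples had under 5 reads, in both groups, normalized by TMM and deposited log2 CPM values, 1 file per sample. Each deposited log2 value proved to be the log2 CPM of the reads plus 0.5 over the TMM-scaled library, and reads per gene were recovered from it, with 100% of values within 0.05 of a whole number. Of 16311 rows per file 16305 were different genes, 1 ribosomal RNA gene being listed 7 times.

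A linear model of limma 3.58.1, run in R 4.3.3 with eBayes moderation that lets the variance follow the mean, was fitted to all 16305 genes, with treatment as the only term, Benjamini-Hochberg adjustment over all genes and calls at an adjusted p under 0.05. Ratios and shares of reads were tested by exact two-sided permutation tests of 3 against 3 samples in Python 3.11.15 with numpy 2.4.6, pandas 2.3.3 and scipy 1.17.1, and figures were drawn with matplotlib 3.10.9. Scripts were tested on simulated data. Between replicates chi-square per degree of freedom was 1.65 to 3.74, against 39.8 to 44.5 between groups, so no sample was a copy of another. Depth was 13303451 to 15272737 reads per sample, and genes with few reads, such as GPX2, carry larger errors.

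The 10 genes and all other lists were chosen with earlier results of these data known. Named were the 10 genes, every measured gene of the rest of the families, of thioredoxin and glutathione reduction and of the regulators, and from each other list up to 4 genes with the largest change among those called and averaging 50 reads or more in the higher group, of which 1 gene is not reported here. Positions and lengths are from GENCODE version 44 mapped to GRCh37, which held 98.7% of the identifiers. SOD2 was matched by symbol, because its identifier differs there. The study's methods name an earlier GENCODE version for the counting, so the exons and lengths used here may differ from those counted. RefSeq promoters of GRCh38.p14 were matched by symbol. Alternatives tried were another scaling, other filters, limma-voom on the recovered reads, no trend, a replicate block and each sample left out in turn.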

Additional observations from a re-analysis of the deposited data

How the results depend on the processing

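With 13 alternative fits, SOD2, CAT, GPX3, GPX4 and PRDX1 kept their direction and their call in all, SOD2 between -1.71 and -1.68 and CAT between 0.68 and 0.70 on the log2 scale. The small rises did not. Without a mean-variance trend, 6 of the 10 genes were called in place of 9: the log2 fold changes of SOD1 (0.11, adjusted p = 0.171), GPX1 (0.15, adjusted p = 0.0981) and PRDX5 (0.14, adjusted p = 0.0793) no longer passed, and 6382 of all genes were called by limma. Leaving out each sample in turn gave 7 to 10 called genes of the 10, with SOD1 between 0.0687 and 0.138, GPX2 between 1.02 and 1.28, PRDX3 between 0.0145 and 0.115, and 3 to 5 called genes of selenoprotein synthesis. PRDX4, which was not called, turned to -0.00197 with library size alone as the scaling and lay between -0.0129 and 0.0303 with single samples left out. NXN, also not called, lay between -0.0665 and 0.0156 there, above 0 only without DMSO replicate 2. Among the other named genes PRDX2, PRDX6, TXN2, GSR, SEPSECS, KEAP1 and ESRRA lost their call under at least 1 alternative and GPX7 and RELA gained one. GPX2 has no value where at least 10 reads were required in every sample. The cause of these changes was not tested beyond the fewer samples or genes that the alternatives hold. No scaling moved the median of all genes by as much as 0.1.

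Same-numbered samples did not deviate together (r of 0.028, -0.019 and 0.013), and 2 of 6 samples correlated best with their own number, so the numbers were not taken as pairs. With the replicate block 7977 genes were called in place of 7794, and 9 of the 10 enzyme genes.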

Other observations

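Genes near the 10 enzymes were looked at after the values of the 10 were known. Of the 55 listed genes within 100 kb of one of the 10, 25 rose, 16 fell and 14 did not pass the test of limma, against 23.3% and 24.5% of all genes called higher and lower. All 5 listed neighbours of SOD2 fell, as SOD2 did, by less than SOD2 in each case: WTAP by 0.58 on the log2 scale, the chaperonin subunit TCP1 by 0.36, ACAT2 by 0.20, the mitochondrial ribosomal protein MRPL18 by 0.16 and the unnamed gene ENSG00000237927, with few reads, by 0.80. WTAP and ACAT2 overlap SOD2. All 4 listed neighbours of GPX1 rose, namely RHOA, a small GTPase, with a log2 fold change of 0.10, the ubiquitin protease USP4 with 0.21, TCTA with 0.38 and C3orf62 with 0.30. The single listed neighbour of CAT, ABTB2, went the other way from CAT and fell by 0.80. The 17 listed neighbours of PRDX5 were mixed, with 8 higher, 3 lower and 6 not called, and the 2 of SOD1 were not called.

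Oxidases outside the 10 genes included some with very few reads that the rule for named genes passed over. Among the measured genes that produce superoxide or hydrogen peroxide, log2 fold changes ranged from -1.72 to 2.75, and among the other selenoproteins from -0.55 to 3.42. The genes at the upper ends of these ranges, chosen after their values were seen, were the oxidase NOX4 and the deiodinase DIO1. NOX4 had 1, 0 and 1 reads in DMSO and 3, 9 and 8 after fostamatinib, and DIO1 had 1, 0 and 0 reads in DMSO and 3, 10 and 10 after fostamatinib. Both passed the authors' read filter only through the fostamatinib samples.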
